A study of Homo sapiens
Mus musculus with 16 samples.

Results

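The mitochondrially encoded genes of tumour and host were followed in xenografts of MDA-MB-231, a human triple-negative breast cancer cell line, grown in Balb/c nude mice. They are 30 of the 106846 genes listed, 15 human and 15 mouse, taken by the Ensembl identifiers of the 13 protein-coding and 2 ribosomal RNA (rRNA) genes of each mitochondrial genome. All 30 identifiers were found in the deposited matrices. They were set by gene identity and not by a measured value, although earlier results of these data were known when they were chosen. Each mouse received 2 M cells, in PBS and Matrigel, into a mammary fat pad, and the tumour was excised on day 50. There were 4 groups of 4 mice, treated by intraperitoneal injection with vehicle alone, with nab-paclitaxel, with phenelzine, or with nab-paclitaxel plus phenelzine (the combination). The dose of nab-paclitaxel, an albumin-bound form of paclitaxel, was 30 mg/kg on each of days 15, 22 and 29, and that of phenelzine, a monoamine oxidase inhibitor, was 40 mg/kg each day from day 15. Mouse age was not given in the sources used here. As nude mice, the hosts lack mature T cells. Tumour cells come from 1 established line.

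Mitochondrial DNA is a small circle that is copied and transcribed inside the organelle, separately from the nuclear chromosomes. Its protein-coding genes make core subunits of the respiratory chain: ND1 to ND6 and ND4L belong to complex I, CYB to complex III, CO1 to CO3 to complex IV, and ATP6 and ATP8 to ATP synthase. RNR1 and RNR2 are the rRNAs of the ribosome that translates them. Almost all of these genes are read from the same strand as long transcripts that are cut at the tRNAs between them; ND6 lies on the other strand.

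Each tumour gave 1 mRNA library with a count for every human and every mouse gene, so that human counts stand for the tumour cells and mouse counts for the host tissue. Totals were 11.1 to 34.5 M human and 3.46 to 27.4 M mouse counts per library. Fewer cells of a species and less RNA per cell cannot be told apart in such bulk samples. Marker genes of the line, the mammary gland or other tissues were not analysed here, because the identifiers of other genes could not be paired with symbols. The libraries of nab-paclitaxel mice 1 and 4 and combination mice 1 and 3 had stood apart from the rest in an earlier analysis of these counts, and the main differences are given with and without them. All 4 had received nab-paclitaxel, so leaving them out removes treated tumours only and leaves fewer of these to test. Ribosomal, overlapping or neighbouring genes and nuclear copies of mitochondrial sequence can share reads, and the handling of strand and shared reads was not given in the sources used here. Values of single members are therefore uncertain in this respect.

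The first feature of the data was that most members were counted in some libraries and listed at 0 in others of the same group. Among human members that reached 1000 counts in any library, 6 of 9 (66.7%) were at 0 in another library, against 21 of 7679 other human genes (0.273%). Among mouse members it was also 6 of 9 (66.7%), against 101 of 6340 other mouse genes (1.59%). A library had 6 to 8 of its 15 human members above 0, in 6 different sets, and 6 to 12 of its 15 mouse members, in 13 different sets. At these totals a count of 0 allows up to 0.271 counts per M counts of the species (CPM) in the shallowest human and 0.868 CPM in the shallowest mouse library, by counting error alone. The cause of the zeros was not tested. No mean is given for such a member.

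**Figure D1:**
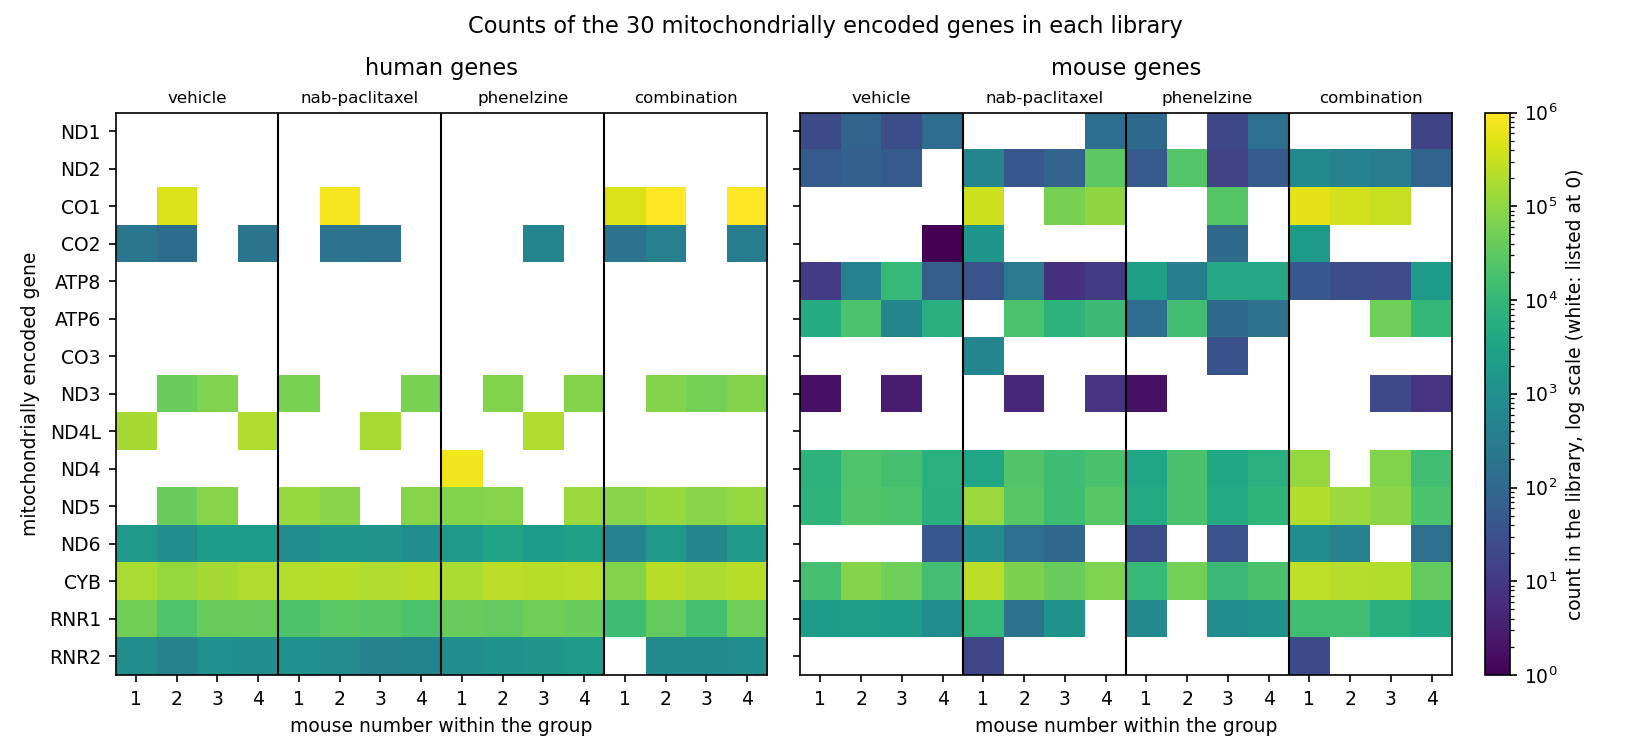
Count of each mitochondrially encoded gene (rows) in each of the 16 libraries (columns, mice 1 to 4 of each group), on a log colour scale with white for a count of 0; left human, right mouse. Human ND6, CYB and RNR1 and mouse ATP8, ND5 and CYB are coloured in all 16 libraries, while human CO1 is coloured in 5 and mouse CO1 in 7.

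Of the human complex I genes, ND1 (ENSG00000198888) and ND2 (ENSG00000198763) were listed at 0 in all 16 libraries. The same held for the ATP synthase genes ATP8 (ENSG00000228253) and ATP6 (ENSG00000198899) and for the complex IV gene CO3 (ENSG00000198938). In the mouse, ND4L (ENSMUSG00000065947) was the single member at 0 in all 16 libraries. Human ND6 (ENSG00000198695), CYB (ENSG00000198727) and RNR1 (ENSG00000211459) were counted in every library, as were mouse ATP8 (ENSMUSG00000064356), ND5 (ENSMUSG00000064367) and CYB (ENSMUSG00000064370). CYB was the single gene counted in all 16 libraries in both species.

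CO1, the catalytic core of cytochrome c oxidase, changed the totals most. Human CO1 (ENSG00000198804; GRCh38, chromosome MT, 5904 to 7445) had 495800 counts in vehicle mouse 2, 817734 in nab-paclitaxel mouse 2, and 472150, 995096 and 981890 in combination mice 1, 2 and 4. It was listed at 0 in the other 11 libraries, including all 4 of the phenelzine group. Where it was counted it made up 67.6 to 72.9% of the human mitochondrial counts. Mouse CO1 (ENSMUSG00000064351) had 354705, 59171 and 99473 counts in nab-paclitaxel mice 1, 3 and 4, 26597 in phenelzine mouse 3, and 574193, 390660 and 304562 in combination mice 1, 2 and 3. It was listed at 0 in the other 9, including all 4 of the vehicle group, and made up 38.6 to 52.1% of the mouse mitochondrial counts where it was present. The species did not go together: of the 16 tumours, combination mice 1 and 2 had CO1 counted in both. The other complex IV genes were low throughout. Human CO2 (ENSG00000198712) reached 534 counts and was at 0 in 7 libraries. Mouse CO2 (ENSMUSG00000064354) reached 1879 and was at 0 in 12, and mouse CO3 (ENSMUSG00000064358) reached 557 and was at 0 in 14.

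The human complex I genes ND3, ND4L, ND4 and ND5 lie next to each other on chromosome MT. Counts of ND4L and counts of the other genes of this stretch took each other's place. ND3 (ENSG00000198840) runs from 10059 to 10404, ND4L (ENSG00000212907) from 10470 to 10766, ND4 (ENSG00000198886) from 10760 to 12137 and ND5 (ENSG00000198786) from 12337 to 14148, so that ND4L and ND4 overlap by 7 bases. ND4L had 157742 and 193418 counts in vehicle mice 1 and 4, 164067 in nab-paclitaxel mouse 3 and 194923 in phenelzine mouse 3. In none of these 4 libraries was ND3, ND4 or ND5 counted. In the other 12 libraries ND4L was at 0 and ND5 was counted, at 41746 to 126508, in 9 of them together with ND3 at 44219 to 78610. ND4 was counted in phenelzine mouse 1 alone, at 742269, where it made up 72.1% of the human mitochondrial counts. Unlike each gene, the sum of the 4 genes was above 0 in every library. Its median was 5895 CPM, and 15 of the 16 libraries lay between 2601 and 11720. Phenelzine mouse 1 stood above them at 23600. This sum was formed after the values were seen and is a description.

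**Figure D2:**
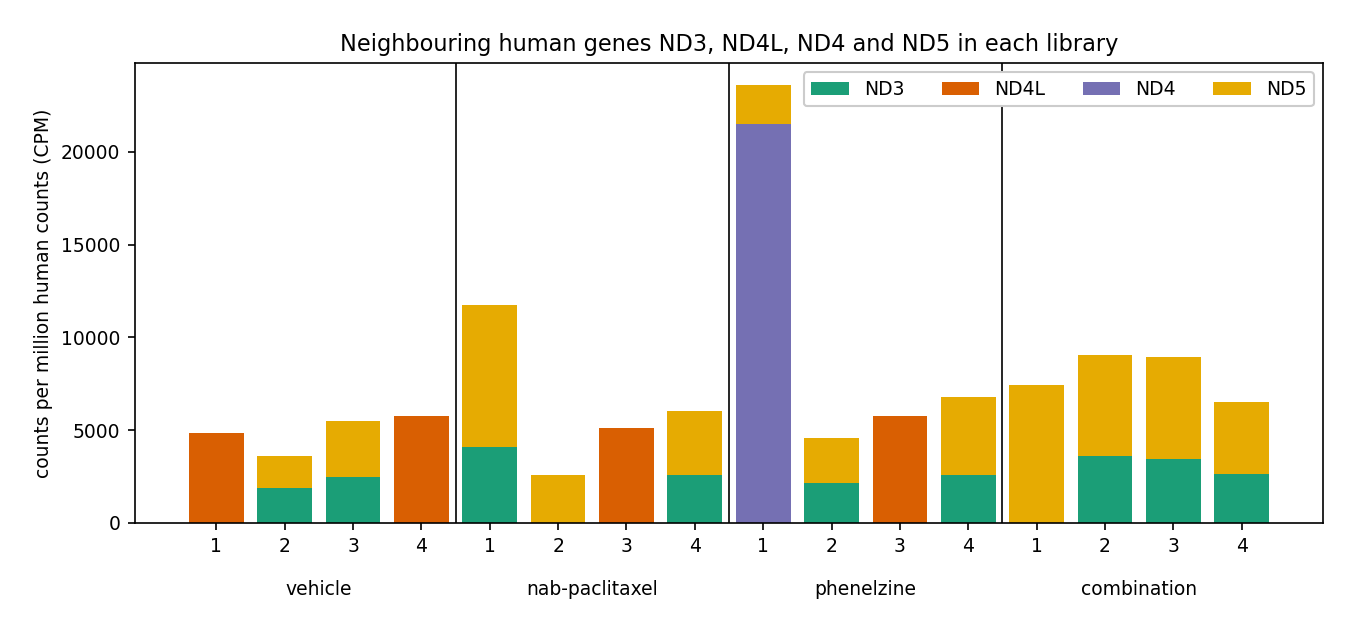
Stacked CPM (counts per M human counts) of the neighbouring complex I genes ND3, ND4L, ND4 and ND5 in each library (mice 1 to 4 of each group). The 4 libraries with ND4L hold nothing else of this stretch, the other 12 hold ND5, and the bar of phenelzine mouse 1 reaches 23600 through ND4.

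Of the mouse complex I genes, ND4 and ND5 were counted in nearly every library. ND4 (ENSMUSG00000064363) had 3493 to 110346 counts in 15 libraries and was at 0 in combination mouse 2. ND5 had 4771 to 199989 in all 16. ND2 (ENSMUSG00000064345) had 30148 counts in nab-paclitaxel mouse 4 and 24730 in phenelzine mouse 2, and at most 758 in any other library. ND1 (ENSMUSG00000064341) reached 156 counts, ND3 (ENSMUSG00000064360) reached 21 and ND6 (ENSMUSG00000064368) reached 954.

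The mouse ATP synthase genes also alternated. These 2 genes overlap in the human annotation, by 46 bases; positions in the mouse were not analysed here. ATP6 (ENSMUSG00000064357) had more counts than ATP8 in 9 libraries and fewer in 7. In vehicle mouse 3, ATP8 had 10432 counts and ATP6 571, while in vehicle mouse 2 they had 456 and 20289. In nab-paclitaxel mouse 1 and combination mice 1 and 2 the pair summed to 37, 45 and 27 counts. CO1 was counted in these 3, but also in 4 libraries where the pair summed to 7488, 12807, 4331 and 47442 counts (nab-paclitaxel mice 3 and 4, phenelzine mouse 3 and combination mouse 3).

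In the counts of these mRNA libraries the rRNAs were a small part of the mitochondrial counts of both compartments. Human RNR1 had 13922 to 49618 counts and human RNR2 (ENSG00000210082) 471 to 1669, with a 0 in combination mouse 1. Mouse RNR1 (ENSMUSG00000064337) had up to 14624 counts and was at 0 in nab-paclitaxel mouse 4 and phenelzine mouse 2, and mouse RNR2 (ENSMUSG00000064339) had 18 and 23 counts in nab-paclitaxel mouse 1 and combination mouse 1 and 0 elsewhere. The 2 rRNAs together made up 6.54% of the human and 1.81% of the mouse mitochondrial counts on average over 16 libraries. The mouse percentage was lower in 15 of 16, with a mean difference, mouse minus human, of -4.73 points (SD 3.46, exact sign-flip permutation test, two-sided, p = 9.16e-05). CO1 is part of the total in both percentages. Mouse RNR2 was at 0 in 14 libraries, so the difference describes the counts as listed. Whether rRNA levels differ between tumour and host cells was not tested.

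Levels per length were set side by side within the human compartment, where RefSeq gives the lengths. The genes from ND3 to ND5 were left out, since counts of ND4L and of the others took each other's place. A count divided by the length of 1 of them is then not a comparable level. CYB had a median of 6190 CPM per kb (4185 to 11904, 16 libraries) and RNR1 1304 (881 to 1765). ND6, on the other strand, had a median of 100 (70.3 to 179), and these 3 ranges did not overlap. Where counted, CO1 had a median of 22088 (13577 to 29921, 5 libraries), above the range of CYB. CO1 was listed at 0 in the other 11 libraries, so its level is uncertain too and no ranking of the transcripts is drawn. RNR2 had 19.4 (15 libraries) and CO2 10.3 (9 libraries).

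The question of how each treatment changed the mitochondrial share of counts was asked for each compartment. In the vehicle group the 15 human members held 1.16, 3.04, 1.28 and 1.29% of human counts in mice 1 to 4, a mean of 1.69% ± 0.897 (SD, n = 4). With nab-paclitaxel the values were 2.68, 3.57, 1.22 and 1.62%, a mean of 2.27% ± 1.06 (SD, n = 4). With phenelzine they were 2.98, 1.29, 1.39 and 1.65%, a mean of 1.83% ± 0.784 (SD, n = 4). With the combination they were 5.85, 6.75, 2.17 and 5.04%, a mean of 4.95% ± 1.98 (SD, n = 4). Combination mice 1, 2 and 4 lay above every other tumour, and combination mouse 3 lay within the range of the other groups. Wilson 95% intervals for these shares span at most 0.0277 points and cover counting error only.

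The combination exceeded vehicle by 3.26 points, nab-paclitaxel by 2.68 points and phenelzine by 3.13 points. None of these passed the threshold (exact permutation tests, two-sided, p = 0.0571, 0.0857 and 0.0571, adjusted over 7 comparisons 0.133, 0.15 and 0.133). The smallest p that 4 against 4 mice can give is 0.0286. Nab-paclitaxel alone differed from vehicle by 0.58 points (exact permutation p = 0.429; 0.149 without nab-paclitaxel mouse 2 and 1.03 without vehicle mouse 2) and phenelzine alone by 0.13 points (exact permutation p = 0.543). The 8 tumours with nab-paclitaxel, alone or combined, averaged 3.61%, which is 1.85 points above the 1.76% of the 8 without it (exact permutation p = 0.0314, adjusted 0.133). Without the 4 libraries that stood apart this difference was 2.39 points (exact permutation, adjusted p = 0.127).

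In the host the 15 mouse members held 0.767, 1.02, 1.52 and 0.690% of mouse counts in vehicle mice 1 to 4, a mean of 0.999% ± 0.376 (SD, n = 4). With nab-paclitaxel the values were 3.26, 1.37, 1.58 and 1.501%, a mean of 1.93% ± 0.890 (SD, n = 4). With phenelzine they were 0.584, 2.09, 1.53 and 0.689%, a mean of 1.22% ± 0.716 (SD, n = 4). With the combination they were 4.29, 3.85, 3.61 and 1.33%, a mean of 3.27% ± 1.32 (SD, n = 4). Again 3 combination tumours were the highest of all 16, but here the low one was mouse 4, not mouse 3.

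The combination exceeded vehicle by 2.27 points in the host (exact permutation test, two-sided, p = 0.0571, adjusted 0.15) and phenelzine by 2.05 points (exact permutation p = 0.0857, adjusted 0.15). It exceeded nab-paclitaxel by 1.34 points (exact permutation p = 0.143, adjusted 0.2). Nab-paclitaxel alone exceeded vehicle by 0.93 points (exact permutation p = 0.0857, adjusted 0.15; 0.486 points without nab-paclitaxel mouse 1), and phenelzine alone by 0.22 points (exact permutation p = 0.657). The 8 tumours with nab-paclitaxel averaged 2.60%, which is 1.49 points above the 1.11% of the 8 without it and did not pass after adjustment (exact permutation p = 0.0103, adjusted 0.0718). It was 0.92 points without the 4 libraries that stood apart (exact permutation, adjusted p = 0.467).

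**Figure D3:**
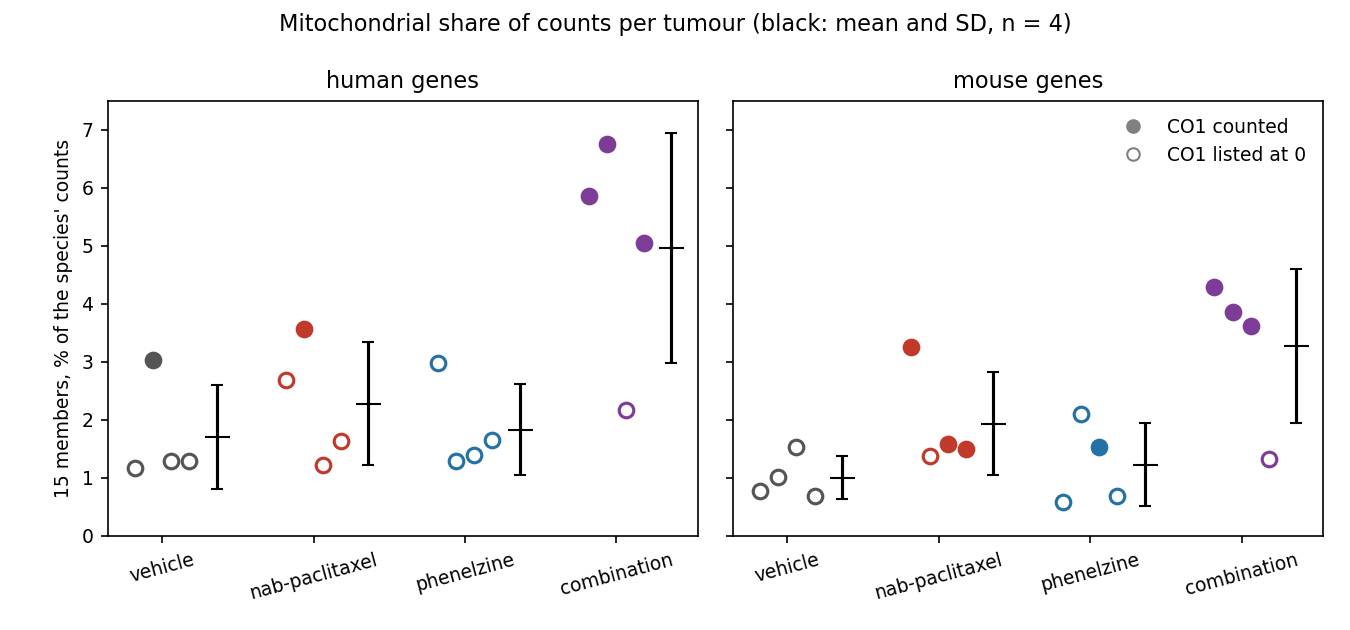
Percentage of human counts (left) and of mouse counts (right) in the 15 mitochondrially encoded genes of that species, 1 point per tumour in the order of mice 1 to 4; filled points are libraries with CO1 counted, black bars the mean and SD (n = 4). All human shares above 3% are filled, and the single combination tumour with CO1 at 0 is mouse 3 on the left and mouse 4 on the right.

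These shares followed CO1. Human shares were 3.04 to 6.75% in the 5 libraries with CO1 counted and 1.16 to 2.98% in the 11 without; mouse shares were 1.501 to 4.29% in the 7 with and 0.584 to 2.09% in the 9 without. With CO1 left out of the sum, a choice made after the values were seen and so given with no test, the human means in the vehicle, nab-paclitaxel, phenelzine and combination groups were 1.17% ± 0.162, 1.65% ± 0.729, 1.83% ± 0.784 and 1.88% ± 0.315 (SD, n = 4). The human phenelzine mean rests in part on 1 gene in 1 library. ND4 made up 72.1% of the human mitochondrial counts of phenelzine mouse 1, which stood at 2.98%, and was at 0 in every other library. The mouse means were 0.999% ± 0.376, 1.22% ± 0.391, 1.03% ± 0.710 and 1.87% ± 0.389 in the same order (SD, n = 4). The excess of the combination over vehicle was then 0.71 points in the tumour, against 3.26 with CO1, and 0.87 points in the host, against 2.27 with CO1.

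Within a library the mouse share was lower than the human share in 10 tumours and higher in 6, with a mean difference, mouse minus human, of -0.832 points (SD 1.48, n = 16, exact sign-flip permutation test, two-sided, p = 0.0402). Without CO1 in either sum the mean difference was -0.352 points. The full difference did not pass the threshold without any 1 of 8 of the 16 libraries.

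Across the 16 tumours the mouse mitochondrial share was higher where the mouse share of all counts was higher (Pearson r = 0.853, permutation p = 0.00015, adjusted over 3 relations 0.00045; Spearman rho = 0.674, permutation p = 0.00531, adjusted 0.0159). Without the 2 libraries farthest from the median in mouse share r was 0.742 (permutation p = 0.00484, adjusted 0.0145), while rho was 0.525 and no longer passed (permutation p = 0.058, adjusted 0.174). Among the 8 tumours with nab-paclitaxel r was 0.891 (exact permutation p = 0.00709, adjusted 0.0213), and among the 8 without it 0.015 (exact permutation p = 0.986), so the relation did not hold in both sets. Mouse CO1 was counted in every tumour whose mouse share of all counts was 41.9% or more. Of the tumours without nab-paclitaxel it was counted in phenelzine mouse 3 alone. The relation with CO1 left out was not taken, so it cannot be told apart from where CO1 was counted. Human and mouse mitochondrial shares gave r = 0.567 (permutation p = 0.0199, adjusted 0.0299) and rho = 0.244 (permutation p = 0.361). This relation rested on the 2 farthest tumours, without which r was 0.022. The mouse share of all counts and the human mitochondrial share gave r = 0.524 (permutation p = 0.0327, adjusted 0.0327) and rho = 0.503 (permutation p = 0.0485, adjusted 0.0727), and r = 0.397 without the 2 farthest tumours.

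Each gene was then tested with edgeR's quasi-likelihood test over all genes of its species, with a threshold of 0.05 on the Benjamini-Hochberg adjusted p. Of the 15 human members 9 passed the filter on low counts, and of the 15 mouse members 10. Human CYB, which encodes cytochrome b, was the single member past the threshold in any of the comparisons, in the effect of nab-paclitaxel averaged over tumours with and without phenelzine. It rose by 0.54 on the log2 scale (SE 0.16, adjusted p = 0.0310), as 1 of 9 members tested, where 17.3% of all human genes tested were called and 11.2% were called higher. A share of 1 in 9 lies near this background.

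Human CYB (GRCh38, chromosome MT, 14747 to 15887) stood at 5201, 4775, 5699 and 5816 CPM in vehicle mice 1 to 4, a mean of 5373 ± 479.6 (SD, n = 4). It stood at 13583, 7012, 6152 and 9323 with nab-paclitaxel, a mean of 9018 ± 3325 (SD, n = 4). With phenelzine the values were 4951, 7154, 6528 and 8124, a mean of 6689 ± 1332 (SD, n = 4), and with the combination 7114, 10551, 11626 and 8057, a mean of 9337 ± 2105 (SD, n = 4). All 4 tumours with nab-paclitaxel alone and all 4 with the combination lay above all 4 vehicle tumours, while those with phenelzine overlapped each other group. CYB is described here because it was called. The share of all human genes with such a separation was not taken, so it is not shown to be particular to CYB. Single comparisons did not pass in edgeR: the fitted log2 difference was 0.63 for nab-paclitaxel against vehicle (SE 0.22, adjusted p = 0.141) and 0.74 for the combination against vehicle (SE 0.22, adjusted p = 0.0955). The first was 0.25 (edgeR, adjusted p = 0.687) without the 4 libraries that stood apart and 0.41 (edgeR, adjusted p = 0.437) without nab-paclitaxel mouse 1. The second was 0.81 (edgeR, adjusted p = 0.136) without the 4 libraries, and it passed without nab-paclitaxel mouse 1 (0.76, edgeR, adjusted p = 0.04997; 0.04997 to 0.241 over the omission of each library). DESeq2 called CYB in both (adjusted p = 0.0474 and 0.0174). The called average was 0.38 (edgeR, adjusted p = 0.185) without the 4 libraries that stood apart and 0.31 (edgeR, adjusted p = 0.698) with the mouse share of counts as a covariate. The mouse share of counts, given further on, was itself higher with nab-paclitaxel. The call was also lost when any 1 of vehicle mouse 2, nab-paclitaxel mouse 1, nab-paclitaxel mouse 4, phenelzine mouse 1 or combination mouse 3 was left out (edgeR, adjusted p = 0.0542, 0.0574, 0.0524, 0.0578 and 0.0577).

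**Figure D4:**
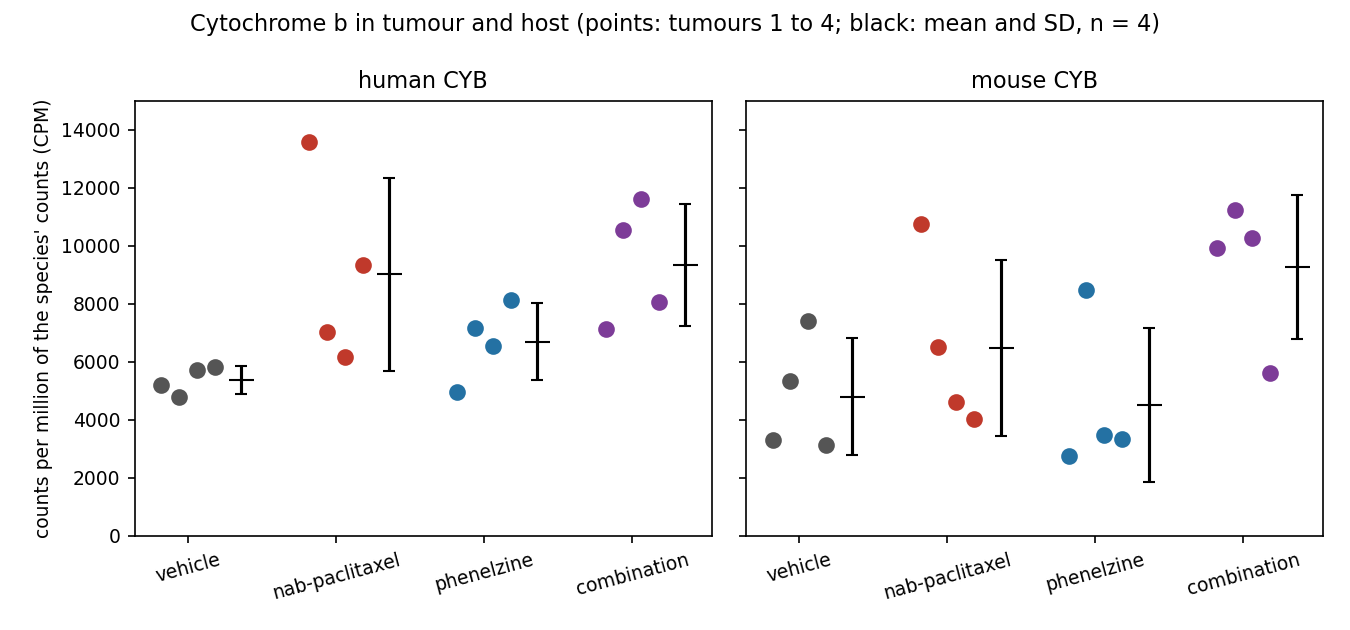
CYB in CPM, counts per M counts of its species, in each tumour, left human and right mouse, in the order of mice 1 to 4; black bars are the mean and SD (n = 4). Human values with nab-paclitaxel (6152 to 13583) and with the combination (7114 to 11626) lie above all vehicle values (4775 to 5816), while the mouse combination values (5623 to 11234) overlap the mouse vehicle values (3136 to 7410). The share of all genes with such a separation was not taken.

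The other human members counted in every library did not pass the test. RNR1 averaged 1303 ± 266.9, 1021 ± 262, 1278 ± 186 and 1416 ± 302 CPM in the vehicle, nab-paclitaxel, phenelzine and combination groups (SD, n = 4), and all groups overlapped. ND6 averaged 55.6 ± 15.6, 44.0 ± 6.71, 73.7 ± 22.3 and 55.5 ± 21.0 in the same order (SD, n = 4), also overlapping. The fitted average effect of nab-paclitaxel was -0.17 for RNR1 (log2, SE 0.15, edgeR adjusted p = 0.461) and -0.43 for ND6 (log2, SE 0.20, edgeR adjusted p = 0.147). Without the 4 libraries that stood apart that of ND6 was -0.21 (log2, edgeR adjusted p = 0.67).

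Mouse CYB stood at 3291, 5325, 7410 and 3136 CPM in vehicle mice 1 to 4, a mean of 4790 ± 2011 (SD, n = 4). With nab-paclitaxel the values were 10732, 6513, 4604 and 4022, a mean of 6468 ± 3035 (SD, n = 4). With phenelzine they were 2758, 8456, 3477 and 3323, a mean of 4504 ± 2653 (SD, n = 4), and with the combination 9905, 11234, 10273 and 5623, a mean of 9259 ± 2488 (SD, n = 4). Combination mice 1, 2 and 3 exceeded all vehicle and phenelzine tumours. The average effect of nab-paclitaxel on mouse CYB was a log2 difference of 0.72 (SE 0.30, edgeR adjusted p = 0.188). It was 0.19 (edgeR adjusted p = 0.945) with the mouse share as a covariate and 0.53 (edgeR adjusted p = 0.831) without the 4 libraries that stood apart.

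Mouse ND5, a large subunit of the membrane arm of complex I, stood at 1566, 1660, 3130 and 1154 CPM in vehicle mice 1 to 4 and at 5555, 2817, 1597 and 1575 CPM in nab-paclitaxel mice 1 to 4. The phenelzine tumours had 1248, 3005, 1393 and 1437 CPM, and the combination tumours 7302, 6425, 4547 and 3011 CPM. The combination mean was 5321 ± 1922 and the vehicle mean 1877 ± 863 (SD, n = 4), with an overlap of combination mouse 4 and vehicle mouse 3. The average effect of nab-paclitaxel was a log2 difference of 1.09 (SE 0.32, edgeR adjusted p = 0.0898), and the combination against vehicle gave 1.49 (SE 0.46, edgeR adjusted p = 0.238). Neither passed in edgeR, and the first was 0.38 (edgeR adjusted p = 0.873) with the mouse share as a covariate and 0.78 (edgeR adjusted p = 0.665) without the 4 libraries that stood apart. Mouse CYB was lower in CPM than human CYB in 11 tumours and higher in 5, with medians of 5474 and 7063.

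In the average effect of nab-paclitaxel, fitted values were above 0 for 5 of 9 human members, with a median of 0.43 on the log2 scale against -0.01 over the 18131 human genes tested. They were above 0 for 8 of 10 mouse members, with a median of 0.43 against -0.01 over the 15074 mouse genes tested. Both medians fell on members listed at 0 in some libraries and fitted with large errors. These were human CO2 at 0.43 (SE 1.32), and mouse ND2 at 0.36 (SE 1.36) and RNR1 at 0.49 (SE 0.97). The 2 mouse members fitted below 0 were ND1 at -3.71 (SE 1.37, edgeR adjusted p = 0.149) and ATP8 at -4.44 (SE 1.57, edgeR adjusted p = 0.135). Mouse ATP8, which alternated with ATP6, averaged 420 ± 810 CPM with vehicle and 8.31 ± 14.6 with nab-paclitaxel (SD, n = 4). It averaged 664 ± 475 with phenelzine and 71.8 ± 141 with the combination (SD, n = 4). The share of all genes fitted above 0 was not taken, so a shared rise of the members is not shown. CO1 was at the top of both orders and human ND4L at the bottom of the human one; where all libraries of a group are at 0 the size of a fitted fold depends on a constant in the fit, and none is printed. Besides CYB, human CO1 had an unadjusted p under 0.05 in this comparison. So did 5 mouse members: ND5, CYB and CO1, fitted above 0, and ND1 and ATP8, fitted below 0. The share of all genes at an unadjusted p under 0.05 was not taken, so these counts have no matching background. At the adjusted threshold 0 mouse members passed, where 0.796% of mouse genes were called. DESeq2 called 3 human (CYB, ND4L, CO1) and 3 mouse members (ND5, CO1, ATP8). The share of all genes that DESeq2 called is not given here, and the edgeR shares come from a different test. These counts therefore have no matching background.

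In the other comparisons edgeR called 0 members of either species. For nab-paclitaxel against vehicle 1 human and 3 mouse members had an unadjusted p under 0.05, DESeq2 called 1 and 1, and edgeR called 0.165% of human and 0% of mouse genes. For phenelzine against vehicle these were 1 and 2 members, with 1 and 1 by DESeq2 and 0% of genes of either species by edgeR. For the combination against vehicle they were 2 and 4 members, with 2 and 2 by DESeq2, against 0.734% of human and 0.0332% of mouse genes. For the combination against nab-paclitaxel they were 2 and 0 members, with 1 and 0 by DESeq2, against 0.00552% and 0.0199% of genes. For the combination against phenelzine they were 2 and 4 members, with 2 and 1 by DESeq2, against 2.27% and 0.00663% of genes. The average effect of phenelzine gave 0 and 1 members, with 2 and 1 by DESeq2, against 0% of human and 0.0265% of mouse genes. The interaction of the drugs gave 1 and 2 members, with 2 and 1 by DESeq2, against 0% of genes of either species. These comparisons share groups, and the DESeq2 calls other than CYB, ND5 and mouse ATP8 were of CO1 and ND4L, which were at 0 in most libraries. All shares of genes in this paragraph are edgeR calls at the adjusted threshold. Shares of all genes at an unadjusted p under 0.05 or by DESeq2 are not given here. The member counts by those 2 criteria thus have no matching background.

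The mouse share of all counts was then taken with and without the 30 members. Over all genes, the vehicle, nab-paclitaxel, phenelzine and combination groups had 21.1% ± 11.5, 36.5% ± 18.1, 12.6% ± 3.54 and 48.3% ± 22.1 (SD, n = 4). Without the members they had 21.2% ± 11.7, 36.6% ± 17.9, 12.7% ± 3.51 and 48.6% ± 21.9 (SD, n = 4). Leaving them out raised the share in 10 libraries and lowered it in 6, from -0.366 points in combination mouse 3 to 0.764 points in combination mouse 2. These changes are small beside the spread between mice of a group.

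The 8 tumours with nab-paclitaxel exceeded the 8 without by 25.6 points with the members (exact permutation test, two-sided, p = 0.00622, adjusted over 7 comparisons 0.0435) and by 25.7 points without them (exact permutation p = 0.00591, adjusted 0.0413). Without the 4 libraries that stood apart these differences were 10.8 points (exact permutation, adjusted p = 0.375) and 11.1 points (exact permutation, adjusted p = 0.354). Those 4 were all treated with nab-paclitaxel and held mouse shares of 59.7, 41.9, 71.2 and 55.9%. Leaving them out had to lower the difference and left fewer treated tumours, so the smaller values are a description. The combination exceeded phenelzine by 35.6 points with and 35.9 without the members, with no overlap between the groups (exact permutation p = 0.0286 in both, the smallest possible, adjusted 0.1). Without the 4 libraries that stood apart these were 20.4 and 21.0 points (exact permutation, adjusted p = 0.375 and 0.354). Too few combination mice then remained for this test to pass the threshold, whatever their values. These p-values therefore cannot decide whether the difference depends on those libraries. The combination against vehicle had an exact permutation p of 0.0857 with the members and 0.0571 without.

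The mouse share was also taken among the mitochondrial counts alone. It was 9.53, 16.9, 21.8 and 7.77% in vehicle mice 1 to 4, a mean of 14.0% ± 6.53 (SD, n = 4), and 64.3, 10.5, 25.7 and 40.04% with nab-paclitaxel, a mean of 35.1% ± 22.9 (SD, n = 4). It was 2.12, 22.5, 10.1 and 7.44% with phenelzine, a mean of 10.5% ± 8.65 (SD, n = 4), and 64.4, 34.0, 67.8 and 5.69% with the combination, a mean of 43.0% ± 29.1 (SD, n = 4). It lay under the mouse share of all counts in 10 libraries and above it in 6, from -20.9 to 11.9 points. The tumours with nab-paclitaxel exceeded those without by 26.8 points (exact permutation p = 0.0101, adjusted 0.0707), and by 6.68 points without the 4 libraries that stood apart (exact permutation, adjusted p = 0.84). Those 4 treated tumours held 64.3, 40.04, 64.4 and 67.8%, so leaving them out had to lower this difference. The mitochondrial genes thus gave a mouse share that could differ by 20.9 points from that of all genes in the same tumour, in vehicle mouse 2, where human CO1 was counted and mouse CO1 was at 0.

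**Figure D5:**
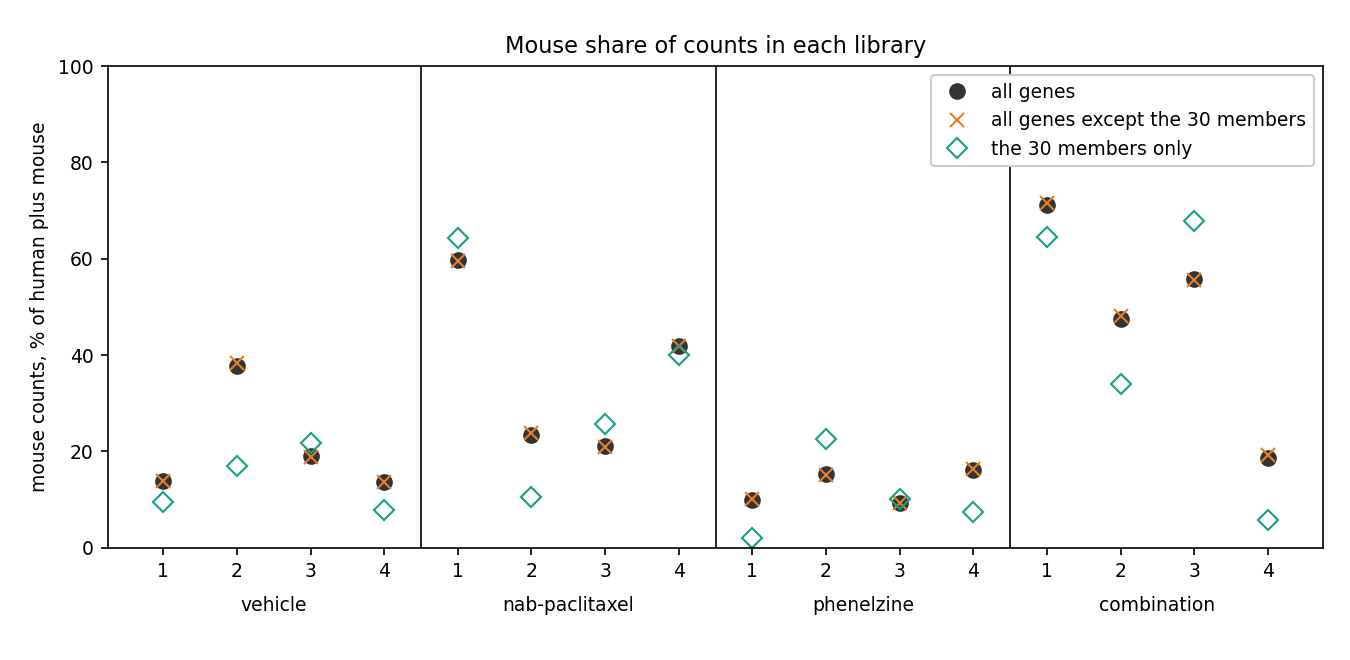
Mouse counts as a percentage of human plus mouse counts in each library (mice 1 to 4 of each group): dots for all genes, crosses without the 30 mitochondrially encoded genes, diamonds for those 30 alone. Crosses and dots coincide within 0.764 points, while diamonds lie up to 20.9 points away.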

How the data were processed

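RNA of 16 tumours was sequenced as TruSeq paired-end mRNA libraries, per the labels' protocols. The authors deposited 2 matrices of whole-number counts per gene, 1 human and 1 mouse. Trimmomatic 0.36, HISAT2 2.04, Picard, StringTie and edgeR, with the builds hg38 and mm10, are named per the submitters' processing notes without role or order. The division of reads between species and the use of strand, duplicates and annotation was not given in the sources used here. Members were matched by identifier; their symbols follow the order in which they were requested, and human positions and lengths come from RefSeq on GRCh38.p14 (15 of 15 matched by symbol). That table holds 0 Ensembl identifiers, so planned lists of nuclear respiratory genes and cell type markers were not analysed. The members and lists were chosen with earlier results of these data known.

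Shares were computed from raw totals and compared by exact permutation over tumours, two-sided, with Benjamini-Hochberg adjustment over 7 comparisons per measure (Python 3.11.15, scipy 1.17.1); correlations used 100000 permutations, or all of them within 8 tumours. EdgeR 4.0.16 (R 4.3.3) was fitted to each whole matrix (TMM factors, filterByExpr with a minimum count of 10, 1 mean per group, 12 residual degrees of freedom), and only the members are named. DESeq2 1.42.0, other size factors, no filter, a replicate block, the mouse share as covariate and leaving out libraries were alternatives; leaving out CO1 and plain library totals were added after seeing the data. Scripts were tested on simulated data. Each library is 1 mouse, so p-values measure the spread between mice. Libraries of 1 group differed by a chi-square per degree of freedom of 39.1 (human) and 13.1 (mouse) or more, so none repeats another.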

Additional observations from a re-analysis of the deposited data

Results flagged for a closer look

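Groups of 4 libraries were searched for a single library whose gap to the nearest of the others exceeded Dixon's 95% critical value. Of 48 groups tested 7 held one. A rate of about 1 in 20 by chance holds for normal and independent values. These measures overlap and some members alternate between libraries, so that rate does not apply here. The human mitochondrial share of vehicle mouse 2 was 3.04%, against 1.16 to 1.29% in the other vehicle tumours; it is the vehicle library with CO1 counted. The mouse mitochondrial share of nab-paclitaxel mouse 1 was 3.26%, against 1.37 to 1.58%. Mouse ATP8 stood at 1635 CPM in vehicle mouse 3 (others 2.11 to 31.6), at 30.2 in nab-paclitaxel mouse 2 (others 0.641 to 1.62) and at 283 in combination mouse 4 (others 1.28 to 1.64). In phenelzine mouse 2, mouse ND5 stood at 3005 CPM (others 1248 to 1437) and mouse CYB at 8456 (others 2758 to 3477).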

How the results depend on the processing

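Without the 4 libraries that stood apart, the nab-paclitaxel average of the mouse share of counts was 10.8 points with all genes and 11.1 without the members, no longer past the threshold. All 4 are treated tumours with a high mouse share, so a lower difference follows from the choice. The phenelzine average turned to -1.998, -1.89 and, among mitochondrial counts, -1.72 points; none of these passed in either fit. The within-library difference was -0.731 with protein-coding members only and -0.352 without CO1. The correlation of human with mouse mitochondrial share was 0.022 without the 2 farthest tumours, 0.467 with nab-paclitaxel and -0.378 without it. That of the mouse share with the human mitochondrial share was 0.397, 0.225 and 0.492, and that with the mouse mitochondrial share 0.015 without nab-paclitaxel.

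In the nab-paclitaxel average edgeR called 0 human members with no filter on low counts, with the mouse share as covariate or without the 4 libraries. CYB was 0.52 (edgeR adjusted p = 0.0609) with no filter. DESeq2 called, in the order of vehicle against nab-paclitaxel, phenelzine and the combination, the combination against nab-paclitaxel and against phenelzine, both drug averages (nab-paclitaxel first) and the interaction, 1, 1, 2, 1, 2, 3, 2 and 2 human and 1, 1, 2, 0, 1, 3, 1 and 1 mouse members. The share of all genes that DESeq2 called is not given beside these counts. Replicate numbers did not pair the samples: 7 of 24 human and 12 of 24 mouse pairs of groups and numbers had a correlation over 0.1. With the replicate block edgeR still called 1 human member in the nab-paclitaxel average, CO1 in place of CYB, which had 0.54 (edgeR adjusted p = 0.0541), and 0 mouse members.

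Leaving out each replicate in turn, the human share differed by -0.252 to 0.580 points for phenelzine against vehicle, 0.149 to 1.03 for nab-paclitaxel against vehicle, 2.66 to 4.19 for the combination against vehicle, 2.08 to 3.61 against nab-paclitaxel, 2.53 to 4.06 against phenelzine, and 1.41 to 2.20 for the nab-paclitaxel average. The mouse share differed by -0.066 to 0.436 for phenelzine against vehicle, 0.486 to 1.11 for nab-paclitaxel against vehicle and 1.25 to 1.67 for the nab-paclitaxel average. The mouse share of all counts differed by 21.4 to 29.0 points for the nab-paclitaxel average (exact permutation, adjusted p 0.0196 to 0.0892, not past the threshold without any 1 of 12 of the 16 libraries) and -4.14 to 6.10 for the phenelzine average. Without the members these were 21.5 to 29.0 (also lost in 12) and -4.07 to 6.16. The mouse share of mitochondrial counts differed by 22.7 to 31.5 for the nab-paclitaxel average, -3.66 to 7.88 for the phenelzine average and -0.423 to 20.3 for the combination against nab-paclitaxel. The within-library difference ranged from -0.984 to -0.640. EdgeR called 0 to 1 human members for the combination against vehicle, and 0 to 2 human and 0 to 2 mouse members for the nab-paclitaxel average. Over every alternative, 823 of 935 values kept their direction and side of the threshold (or, for counts, stayed within 1.5 times). Of the rest, 51 fell short of it, 12 passed it, 24 changed sign and 25 counts moved. Most of the 935 belong to results that had not passed in the main fit and so could not fall short. Of results that had passed, the nab-paclitaxel average of the mouse share of all counts fell short in 13 alternatives and held in 4. The within-library difference fell short in 10 and held in 9, and human CYB fell short in 9 and held in 15. The 3 relations fell short in 1 to 3 alternatives each. The rRNA difference held in all 16. The cause was not tested. The number of libraries limits precision more than depth does.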
